A study of Saccharomyces cerevisiae with 21 samples.

Results

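Nuclear genes for proteins of the mitochondrial ribosome were followed in poly(A)-selected RNA of budding yeast, Saccharomyces cerevisiae. The 51 genes were chosen by name, as the MRPL, MRPS and MRP genes without an intron, out of 6571 coding sequences counted in each library. Of them, 36 encode proteins of the large subunit and 15 of the small subunit. In all, 35 have a counterpart in the bacterial ribosome and 16 do not. They lie on 12 of the 16 chromosomes, and none holds an intron, so none of their own transcripts is a substrate of the splicing machinery that the strains alter.

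The mitochondrial ribosome makes the few proteins still encoded by the mitochondrial genome, nearly all of them core subunits of the respiratory chain and of ATP synthase. Its RNAs come from the mitochondrial genome, while nearly all of its proteins are made in the cytosol and imported. In yeast the mRNAs of many of these proteins are bound in their 3′ ends by Puf3, an RNA-binding protein that promotes their decay on glucose and their translation when cells respire. Hap4 is the activating subunit of the transcription factor complex that drives respiratory chain genes.

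The 21 libraries came from 7 groups of 3. A wildtype strain and a strain with a humanized form of the U1 snRNP protein encoded by YHC1 were sampled at an OD600 near 0.4 (low density). In an earlier experiment both had been sampled at high density, the wildtype near 5 and the humanized strain near 8. A Luc7 triple mutant, changed in another U1 snRNP protein, was labelled low OD. A strain whose Luc7 carries a degron was taken minus IAA (undepleted) and after 6 hours in beta-estradiol and IAA (depleted). The labels give no strain background and no medium per group, only that cells grew on YPD or in dropout media. The selection marker URA3 had 18537–27267 reads in each wildtype and humanized library at low density and 0 in the triple mutant, while LEU2 had 18586–39953 reads in the triple mutant and 0 in those strains. A comparison of the triple mutant with either strain therefore holds marker and strain differences that cannot be told apart from Luc7.

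Libraries held 28.5 to 46.8 M assigned reads, and the lowest count of any of the 51 genes in any library was 80 reads. YHC1 had 35.6–40.8 normalized CPM (counts relative to the library's total after scaling between libraries) in wildtype against 29.4–32.2 in humanized libraries at low density. It was also at 31.8–34.1 in the triple mutant and 28.3–32.7 in undepleted degron libraries, so a low value is not particular to the humanized strain. LUC7 had 79.2–128 in undepleted and 101–146 in depleted cells. The degron acts on the protein, so the mRNA does not show the depletion. Whether replicates came from separate cultures is not in the labels, so p-values measure the spread between these libraries. In bulk cultures, fewer cells with an mRNA and less mRNA per cell cannot be told apart.

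All 51 genes carried the core Puf3 motif TGTANATA on the sense strand within 200 bases after the stop codon, against 843 of 5876 nuclear protein-coding genes (14.3%). On the opposite strand of the same windows 9 of 51 held it (17.6%), against 13.2% of all genes. The 23 further proteins of the mitochondrial ribosome with other names, such as RSM and NAM9 genes, all had it too, whereas 6 of 33 nuclear genes of the respiratory chain and ATP synthase did (18.2%). In a shorter window of 100 bases it was found in 46 of 51 genes (90.2%) and 10.3% of all genes. A second element searched, AATTTT within 300 bases before the start codon on either strand, was in 22 of 51 genes (43.1%) and 55.0% of all genes. A match describes the sequence and does not show that a protein bound it.

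The first motif after the stop codon is shown for 8 genes on which the comparisons turn, read 5′ to 3′ on the coding strand of the R64 (sacCer3) reference from RefSeq, with the motif in capitals and 10 bases on either side.
MRP1: tggtagtctcTGTAAATAtataaagtca
MRPL40: atattcgaccTGTATATAtgaaagcata
MRPS9: tcgttattccTGTAAATAaagttatatg
MRP4: aacctaaactTGTACATAtgcccatata
MRP49: agtttgttcaTGTATATAtcaaaaaaca
MRP51: ttcagagttcTGTAAATAaataaagaaa
MRPS17: cactacactcTGTAAATAtatacaacta
MRP13: taaacataccTGTAAATActaaaaagta
These sites lie at chrIV:1170184-1170211 (+), chrXVI:224134-224161 (+), chrII:536225-536252 (+), chrVIII:100430-100457 (+), chrXI:133679-133706 (−), chrXVI:327698-327725 (+), chrXIII:636218-636245 (−) and chrVII:647065-647092 (−), in the order shown. Each follows a gene of 1 uninterrupted coding exon, such as MRP1 at chrIV:1169178-1170143 and MRP49 at chrXI:133721-134134. Across the 51 genes there were 62 motifs, and 11 genes had more than 1. The free base at position 5 of the motif was A in 29, T in 19, C in 13 and G in 1, and the base 2 places before the motif was C in 40 of the 62.

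**Figure D1:**
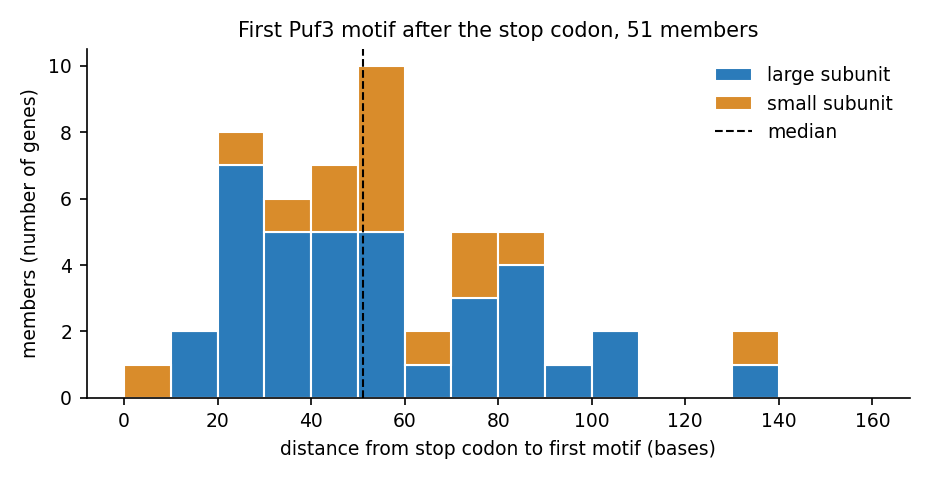
Distance in bases from the stop codon to the first TGTANATA motif (x axis) against the number of genes (y axis), stacked by subunit. First motifs lie 8 to 139 bases after the stop codon, with a median of 51 (dashed line).

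The genes were expressed at moderate levels. Mean TPM (transcript abundance per length of coding sequence, relative to all transcripts) over the 21 libraries had a median of 56.2 over the 51 genes and 31.2 over all genes, and 50 of the 51 lay above the latter. MRPS12, whose bacterial counterpart S12 helps to read the codon, was highest at 239 TPM, with a range over libraries of 136 to 378. MRPS16 followed at 207 (106–328) and MRPL37 at 140 (100.1–198). These ranges overlapped. At the other end stood MRPS5 at 35.2 TPM (25.5–58.6), MRPL4 at 33.6 (25.6–51.5) and MRPL24 at 27.6 (18.1–38.4), whose ranges overlapped too, and the highest mean was 8.68 times the lowest. Proteins of one particle, needed in equal number, thus differed in mRNA level per length. Large and small subunit genes had medians of 56.1 and 63.7 TPM.

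**Figure D2:**
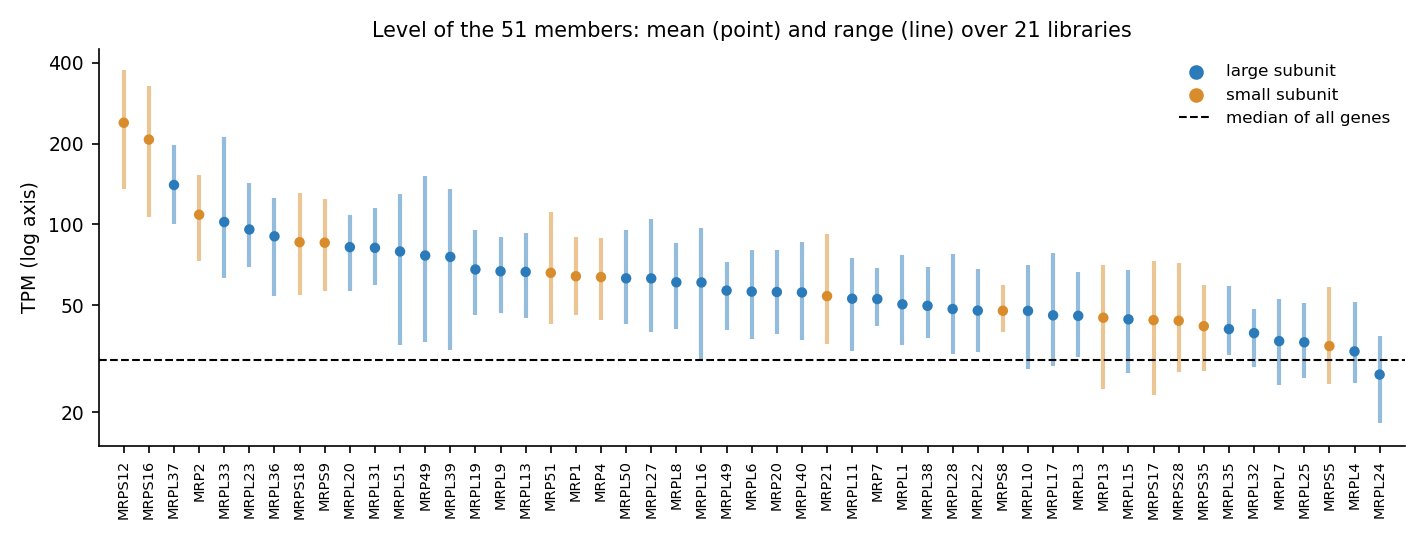
TPM on a log axis for each of the 51 genes, ordered by mean; points are means and lines the range over 21 libraries, coloured by subunit, with the median of all genes dashed. MRPS12 at 239 and MRPL24 at 27.6 mark the ends, and MRPL24 alone has a mean below the median of all genes.

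The summed share of the 51 genes in the assigned reads was 0.187–0.194% in wildtype, 0.184–0.191% in humanized and 0.161–0.170% in triple mutant cells at low density. At high density it was 0.228–0.277% in wildtype and 0.297–0.333% in humanized cells. Undepleted degron cells had 0.245–0.266% and depleted cells 0.253–0.262%. The triple mutant was lowest and did not overlap with any other group, humanized cells at high density were highest and did not overlap with any other group, and the degron groups overlapped. Shares depend on what else is in the library. Cytosolic ribosomal protein genes took 11.9–12.8% of reads in undepleted and 4.11–4.93% in depleted cells, and once they were left out of the total the 51 genes had 0.278–0.303% and 0.267–0.276%, which did not overlap.

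Single genes differed in how far their level moved between groups. MRP49, a large-subunit protein without a bacterial counterpart, had the highest coefficient of variation over the 7 group means of TPM, 51.9%, and MRPS8, the counterpart of bacterial S8, the lowest, 11.8%. MRPS9 was called in 7 of the 8 comparisons below. MRPL25 and MRPL37 were called in none. A gene was called when the adjusted p of edgeR's quasi-likelihood test, corrected over all genes by Benjamini and Hochberg, was below 0.05, and all 51 passed the filter on low counts in every fit.

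**Figure D3:**
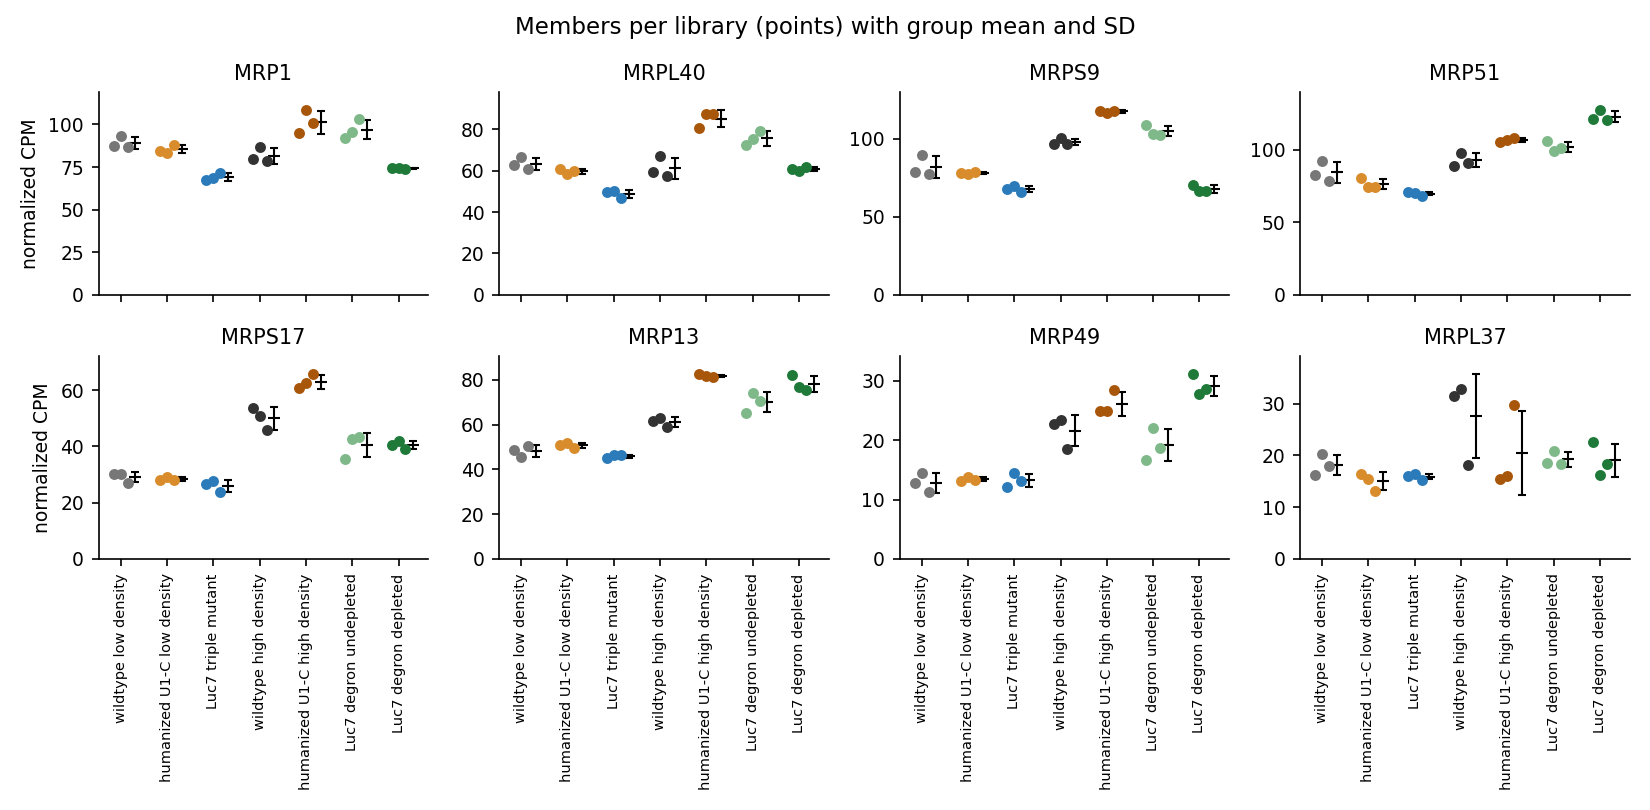
Normalized CPM (y axis) of 8 genes in each library (points) of the 7 groups (x axis), with the group mean and SD beside them. MRP1 and MRPL40 were lowest in the triple mutant, MRPS17 and MRP13 were high in humanized cells at high density, and MRPL37 spread widely between libraries at high density. MRP49 had its highest mean after Luc7 depletion, where its values overlapped with those of humanized cells at high density.

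The comparison of humanized with wildtype cells at low density asks what the humanized protein does to cells in log phase. The log2 fold changes of the mitochondrial ribosome genes lay between −0.41 and +0.07. In simulated data for this comparison 79% of genes changed by 0.5 on the log2 scale were called, and smaller changes were not simulated. A missing call does not show that a gene was unchanged. Only MRPL38, the counterpart of bacterial L14 in the large subunit, was called, and none was called higher (0 of 51, against 2.67% of all genes called higher and 3.88% called lower). MRPL38 had 16.2, 13.9 and 15.1 normalized CPM in wildtype and 12.2, 11.2 and 10.8 in humanized libraries. All 3 humanized values lay below the wildtype ones (log2 fold change −0.41 ± 0.10, mean ± SE, n = 3 libraries per group, adjusted p = 0.0351 by edgeR).

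The median log2 fold change of the 51 genes was −0.07 against 0.00 for all genes, and it was +0.08 on the TPM scale, where that of all genes was +0.14. The values of 45 of the 51 genes were below 0, against 3032 of 6107 genes tested. At an unadjusted p under 0.05, 9 were lower and 0 higher, against 868 lower and 904 higher of all genes. MRPS16 had 33.0, 39.9 and 31.3 normalized CPM in wildtype and 29.4, 29.7 and 28.6 in humanized cells, so that its groups did not overlap, but it was called only without wildtype replicate 3 (−0.25 ± 0.09, edgeR adjusted p = 0.108 with all libraries and 0.0352 without it). The call of MRPL38 was lost when wildtype replicate 1, humanized replicate 2 or 3 or triple mutant replicate 3 was left out (edgeR adjusted p = 0.117, 0.146, 0.140 and 0.0505), and without wildtype replicate 3 the number called lower was 3. It was also lost with all 7 groups in 1 fit (edgeR adjusted p = 0.166), with an offset per library for gene length and GC content (0.0927) and in limma on the TPM scale (0.124).

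Genes that act beside the ribosome gave a few calls in the other direction at low density. Of 9 mitochondrial translation factors 1 rose, MEF2, a GTPase of ribosome recycling (+0.58 ± 0.12, edgeR adjusted p = 0.0199). It was not called without humanized replicate 2 or 3, with an adjusted p of 0.0898 in the latter case, nor in limma on the TPM scale (adjusted p = 0.0616). Of 33 respiratory chain and ATP synthase genes 5 rose and none fell, with SDH2, the iron-sulfur subunit of succinate dehydrogenase, at +0.38 ± 0.07 (adjusted p = 0.00931). Without humanized replicate 2 this p was 0.0545. HAP4 had 136–208 normalized CPM in wildtype and 238–259 in humanized cells (+0.59 ± 0.13, adjusted p = 0.0257 by edgeR). Leaving out wildtype replicate 1 or any of humanized replicates 1, 2 and 3 gave 0.0930, 0.0609, 0.0840 and 0.108, and limma on the TPM scale 0.0522. PUF3 had 39.8–42.7 and 36.2–40.2 normalized CPM and was not called (−0.11 ± 0.06, adjusted p = 0.246 by edgeR), although with the offset it was (−0.23, edgeR adjusted p = 0.0488).

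In the Luc7 triple mutant the mitochondrial ribosome genes were lower as a broad group. Of the 51 genes 32 fell and none rose against wildtype at low density (62.7% lower, against 26.5% of all genes called lower and 28.3% called higher). Both subunits took part, with 22 of 36 large-subunit and 10 of 15 small-subunit genes lower. The decreases were small. The median log2 fold change was −0.22 against 0.00 for all genes, and the lowest value was −0.51.

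MRP1 (YDR347W), a small-subunit protein of yeast linked by genetics to the COX3 activator PET122, had 87.5, 93.4 and 86.6 normalized CPM in wildtype and 67.4, 68.6 and 71.7 in the triple mutant. MRPL40 (YPL173W), the counterpart of L24 at the polypeptide exit of the large subunit, had 62.9, 66.5 and 60.8 against 49.7, 50.2 and 46.6. In both the groups stood well apart, by −0.37 ± 0.05 (edgeR adjusted p = 0.000165) and −0.38 ± 0.05 (edgeR adjusted p = 0.000236). MRPS16 fell furthest, from 33.0, 39.9 and 31.3 to 22.2, 26.7 and 24.3 (−0.51 ± 0.09, edgeR adjusted p = 0.00113).

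Other genes past the test ranged widely in role. MRPS18, the counterpart of S11 on the platform of the small subunit, fell by 0.39 on the log2 scale, and MRPS28, the counterpart of S15, by 0.29. Among large-subunit proteins without a bacterial counterpart, MRPL20 fell by 0.42 and MRPL13 by 0.26, and MRPL50, the counterpart of L9, by 0.47. MRPS12, the highest in mean TPM, went from 72.0, 83.5 and 74.3 normalized CPM to 69.1, 65.5 and 66.5 (−0.20 ± 0.07, edgeR adjusted p = 0.0258). That call was lost without triple mutant replicate 2 or 3 or wildtype replicate 2 (edgeR adjusted p = 0.0754, 0.0716 and 0.0585). MRPL32, whose maturation by the m-AAA protease is a step in assembling the ribosome, went from 23.6, 26.6 and 23.2 to 20.4, 21.6 and 17.8 (−0.30 ± 0.08, edgeR adjusted p = 0.0118). With the offset for length and GC content MRPS12, MRPL32 and MRPL16 were not called (edgeR adjusted p = 0.0754, 0.0557 and 0.0756). On the TPM scale the calls of these 3 and of MRPL4, MRPL13 and MRPS28 were lost (limma adjusted p = 0.0683 to 0.929).

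Of the proteins that ring the exit tunnel MRPL40 and MRPL4 (−0.16 ± 0.05, edgeR adjusted p = 0.0231) fell, although MRPL4 did not without triple mutant replicate 2 or wildtype replicate 3 (edgeR adjusted p = 0.0847 and 0.0543), while MRPL22 (−0.15 ± 0.06, edgeR adjusted p = 0.0672, and 0.0452 and 0.0271 without triple mutant replicate 1 or wildtype replicate 3) and MRP20 (+0.04 ± 0.06, edgeR adjusted p = 0.635) were not called. MRP20, the counterpart of L23, had 52.5, 55.7 and 50 normalized CPM in wildtype and 50.3, 55.0 and 57.9 in the triple mutant, which overlapped. MRP7, the counterpart of L27 beside the peptidyl transferase centre, had 81.2, 92.5 and 86.3 against 78.3, 81.9 and 76.0 and was not called (−0.15 ± 0.06, edgeR adjusted p = 0.0575). It was called with DESeq2 (adjusted p = 0.0426), and in edgeR with DESeq2's size factors, the offset, all 7 groups in 1 fit or wildtype replicate 1 left out (adjusted p = 0.0309 to 0.0484). MRPL16 fell (−0.31 ± 0.10, edgeR adjusted p = 0.0220), but not without triple mutant replicate 3 or wildtype replicate 2 (edgeR adjusted p = 0.0818 and 0.0651). MRP51, a small-subunit protein tied by genetics to the 5′ leaders of COX2 and COX3, fell as well (−0.28 ± 0.06, edgeR adjusted p = 0.00371).

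The other 23 proteins of the mitochondrial ribosome moved the same way, with 13 lower, none higher and a median of −0.28, among them RSM26 (−0.34) and EHD3 (−0.30, not called on the TPM scale with a limma adjusted p of 0.222). The neighbouring lists given here had smaller shares called lower than all genes (26.5%). Their shares called higher, against 28.3% of all genes, were about the same in tRNA synthetases and in respiratory chain and ATP synthase genes. Of 9 translation factors 6 rose (66.7%) and 1 fell (11.1%), led by FMT1, which formylates the initiator tRNA (+1.39 ± 0.24, edgeR adjusted p = 0.000820), and MEF2 (+0.62). Of 14 mitochondrial tRNA synthetases 4 rose (28.6%) and none fell, with NAM2, for leucine, at +0.34 (+0.11 and not called with the offset, edgeR adjusted p = 0.101). Of 14 activators of single mitochondrial mRNAs 5 rose (35.7%) and 1 fell (7.1%), with SOV1, which acts on VAR1, at +0.45. Of 33 respiratory chain and ATP synthase genes 9 rose (27.3%), among them SDH1 (+0.94) and SDH2 (+0.77), and 4 fell (12.1%).

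Neither regulator's transcript was called lower. HAP4 was at 346–389 normalized CPM in the triple mutant against 136–208 in wildtype (+1.15 ± 0.13, edgeR adjusted p = 5.81e-05). PUF3 was at 43.8–46.2 against 39.8–42.7 and was not called (+0.12 ± 0.06, edgeR adjusted p = 0.104), and its value was −0.12 with the offset. Cytosolic ribosomal protein genes without an intron also fell, 27 of 43 tested with a median of −0.21, and genes outside the mitochondrial ribosome that hold the TGTANATA motif had 238 lower and 165 higher of 759, with a median of −0.05. Of the 51 genes, 12 instead of 32 were called lower in limma on the TPM scale, where the median of all genes was +0.13 and that of the 51 genes −0.08, which is −0.21 relative to it. With the offset 24 were called lower and 1 higher, and the median of the 51 genes relative to all genes was −0.12 in place of −0.22. The shares of all genes called under these settings are not given. Changes in the counts are therefore not shown to be particular to the 51 genes. The cause of the decrease was not tested, and Luc7, strain and medium cannot be told apart in it.

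Set directly against humanized cells, the triple mutant was lower in 12 of the 51 genes and higher in none (23.5%, against 16.1% of all genes called lower and 17.8% called higher), with a median of −0.15 against +0.02 for all genes. MRP1 had 84.7, 83.5 and 88.1 normalized CPM in humanized cells, all above its 67.4–71.7 in the triple mutant (−0.30 ± 0.05, edgeR adjusted p = 0.000966). MRPL40 had 60.9, 58.4 and 59.7 against 46.6–50.2 (−0.29 ± 0.05, edgeR adjusted p = 0.00214). MRPS18 had 55.0, 53.1 and 55.2 against 41.9–47.2 (−0.31 ± 0.07, edgeR adjusted p = 0.00559). These were the clearest, followed by MRPL13, MRPL7, MRPS9, MRPS28 and MRP4 at −0.19 to −0.22. Of these 5, MRPL13 was lost without humanized replicate 1 (edgeR adjusted p = 0.0524), MRPL7 without replicate 2 of either group (edgeR adjusted p = 0.0547 and 0.0532), and MRPS9 and MRPS28 without triple mutant replicate 1 or 3 or humanized replicate 1. MRPS9 was also lost without humanized replicate 3, MRPS28 without humanized replicate 2, and MRP4 without any of the triple mutant replicates or humanized replicate 2 or 3, with edgeR adjusted p of 0.0534 to 0.102 over these. On the TPM scale MRPL7, MRPS28 and MRP4 were not called (limma adjusted p = 0.0507, 0.0830 and 0.166), nor was MRP4 with all 7 groups in 1 fit (edgeR adjusted p = 0.0849).

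The count of 12 moved with single libraries. It was 5, 7, 6 and 5 without humanized replicate 1 or 2 or triple mutant replicate 1 or 3, and 23 and 19 without wildtype replicate 2 or 3. The wildtype libraries are not contrasted here, but the shared estimate of spread, the filter and the scaling were made with them. Among other mitochondrial ribosome proteins 5 of 23 were lower, with EHD3 at −0.32 and SWS2, the counterpart of S13, at −0.29. The call of SWS2 was lost without humanized replicate 1 (edgeR adjusted p = 0.0605) or triple mutant replicate 1 (edgeR adjusted p = 0.0554), and with all 7 groups in 1 fit (edgeR adjusted p = 0.0610). HAP4 was higher in the triple mutant than in humanized cells (+0.56 ± 0.13, edgeR adjusted p = 0.00687), as was PUF3 (+0.23 ± 0.06, edgeR adjusted p = 0.0120). PUF3 was not called without humanized replicate 2 (edgeR adjusted p = 0.0539) or after the offset for length and GC content (+0.11, adjusted p = 0.194), nor in limma on the TPM scale (adjusted p = 0.135). The wildtype, humanized and triple mutant comparisons share libraries, so their values for one gene are not independent.

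Depletion of Luc7 for 6 hours split the genes. Of the 51, 23 fell and 6 rose (45.1% and 11.8%, against 34.3% of all genes called lower and 34% called higher). Large-subunit genes gave 15 lower and 5 higher of 36, and small-subunit genes 8 lower and 1 higher of 15. The median was −0.14 against +0.01 for all genes, within a range of −0.65 to +0.60. In limma on the TPM scale the split was 4 lower and 22 higher with a median of +0.12, where the median of all genes was +0.28, so that the 51 genes were lower by 0.16 relative to it. The shares of all genes called on that scale are not given beside these counts.

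MRP4 (YHL004W), the counterpart of S2, had 127, 135 and 141 normalized CPM before depletion and 89.2, 83.7 and 83.1 after it. MRPS9 (YBR146W), the counterpart of S9, had 108, 103 and 103 against 70.4, 66.3 and 66.5. Every depleted library lay below every undepleted one, by −0.65 ± 0.06 (edgeR adjusted p = 4.86e-06) and −0.63 ± 0.05 (edgeR adjusted p = 3.49e-06). The coding sequence of MRP4 overlaps that of YHL005C on the opposite strand by 2 bases. MRPS28 fell by 0.48, MRP1 by 0.39, MRPL35 by 0.39, MRPL23 by 0.39, MRPL13 by 0.38 and MRPL20 by 0.33 on the log2 scale, each with groups that did not overlap in normalized CPM. In limma on the TPM scale the calls of MRP1, MRPL35, MRPL23, MRPL13 and MRPL20 were lost, at −0.07 to −0.13 (adjusted p = 0.0738 to 0.413).

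The 6 genes that rose were MRP49, MRP51, MRPL27, MRPL28, MRP20 and MRPL4. MRP49 (YKL167C) had 16.7, 22.1 and 18.8 normalized CPM before and 31.1, 27.8 and 28.7 after depletion (+0.60 ± 0.11, edgeR adjusted p = 0.000595). MRP51 (YPL118W) had 106, 99.4 and 101 against 121, 127 and 120 (+0.27 ± 0.05, edgeR adjusted p = 0.00102). MRP20 had 47.1, 61.5 and 65.5 against 78.3, 75.6 and 73.1 (+0.38 ± 0.11, edgeR adjusted p = 0.00920), with undepleted replicate 1 below the other two of its group. MRPL27 was not called with all 7 groups in 1 fit (edgeR adjusted p = 0.0522). Without undepleted replicate 2 the number called higher was 10.

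Genes within the same part of the particle were called in different directions, and parts were not compared by a test. At the exit tunnel MRP20 and MRPL4 (+0.22 ± 0.06, edgeR adjusted p = 0.0130) rose, MRPL40 fell (−0.32 ± 0.06, edgeR adjusted p = 0.000633), and MRPL22 was not called (−0.00 ± 0.07, edgeR adjusted p = 0.996), though on the TPM scale it was (+0.26, limma adjusted p = 0.0119). MRPL4 was not called without depleted replicate 1 (edgeR adjusted p = 0.0769) or after the offset for length and GC content (+0.10, adjusted p = 0.184). In the central protuberance of the large subunit 5 of 6 genes fell and MRPL28 rose (+0.46 ± 0.12, edgeR adjusted p = 0.00501). MRP7, one of the 5, fell from 92.2, 83.0 and 84.9 to 76.3, 79.6 and 80.0 normalized CPM (−0.14 ± 0.06, edgeR adjusted p = 0.0482, with the sign turned to +0.08 on the TPM scale). Its call was lost on leaving out any depleted replicate or undepleted replicate 1 or 3 (edgeR adjusted p = 0.0728 to 0.154), with the offset (0.0516) and with DESeq2 (0.0581). MRPS12, MRPL16 and MRPL32 were not called, at +0.29, +0.07 and +0.07. All 3 were called higher in limma on the TPM scale, at +0.70, +0.34 and +0.34 (adjusted p = 0.00892, 0.00783 and 0.0158), and MRPS12 also without undepleted replicate 2 (+0.45, edgeR adjusted p = 0.0292).

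The depletion and the triple mutant share no library. Of the genes called lower, 16 were common to both, 50% of the 32 in the triple mutant and 69.6% of the 23 in the depletion. Over the 6093 genes tested in both, 800 were called lower in both, 49.4% and 38.0% of the respective lists. The 69.6% stood beside 62.7% of all 51 genes lower in the triple mutant, and the 50% beside 45.1% lower in the depletion. The overlap within the 51 genes was therefore close to those rates. Over all genes tested, 26.5% were lower in the triple mutant and 34.3% in the depletion. MRPL4 and MRP51 were lower in the triple mutant and higher after depletion. Another 8 genes were called in neither.

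Around the ribosome the depletion moved genes in both directions, as it did over all genes, of which 34.3% were called lower and 34% higher. Other mitochondrial ribosome proteins were lower in 30.4% and higher in 8.7%. Respiratory chain and ATP synthase genes were lower in 21.2% and higher in 39.4%. Of 23 other mitochondrial ribosome proteins 7 fell and 2 rose, with RSM23 at −0.44 (not called on the TPM scale, limma adjusted p = 0.0947) and RML2, the counterpart of L2, at −0.43. Of 9 translation factors 4 rose and 2 fell, with MEF2 at +1.28 ± 0.07 (edgeR adjusted p = 2.21e-07) and TUF1, the elongation factor Tu, at −0.78 ± 0.05 (edgeR adjusted p = 3.59e-07). Assembly factors and tRNA synthetases were divided too, with MTG2 at −0.80 and MRM2 at +0.68, MSM1 at −0.45 (not called on the TPM scale, limma adjusted p = 0.0539) and DIA4 at +0.88. Among the activators of single mRNAs PET309, for COX1, fell by 0.52 on the log2 scale and ATP22, for ATP6, had +0.54. Respiratory chain and ATP synthase genes gave 13 higher and 7 lower of 33, from COX4 at −0.90 to SDH4 at +0.61 among those named.

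HAP4 fell from 221–262 to 44.2–59.7 normalized CPM (−2.31 ± 0.11, edgeR adjusted p = 1.08e-07). PUF3 went from 43.3–52.9 to 37.9–44.0 (−0.27 ± 0.09, edgeR adjusted p = 0.0177). The call of PUF3 was lost without depleted replicate 1 or 2 or undepleted replicate 1 or 3 (edgeR adjusted p = 0.0666, 0.0668, 0.0678 and 0.0601) and on the TPM scale (limma adjusted p = 0.892). Cytosolic ribosomal protein genes without an intron fell in 41 of 42 tested, with a median of −1.24, well below the −0.14 of the mitochondrial set. The labels do not say whether undepleted cells had beta-estradiol, so the agents and the loss of Luc7 cannot be told apart.

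**Figure D4:**
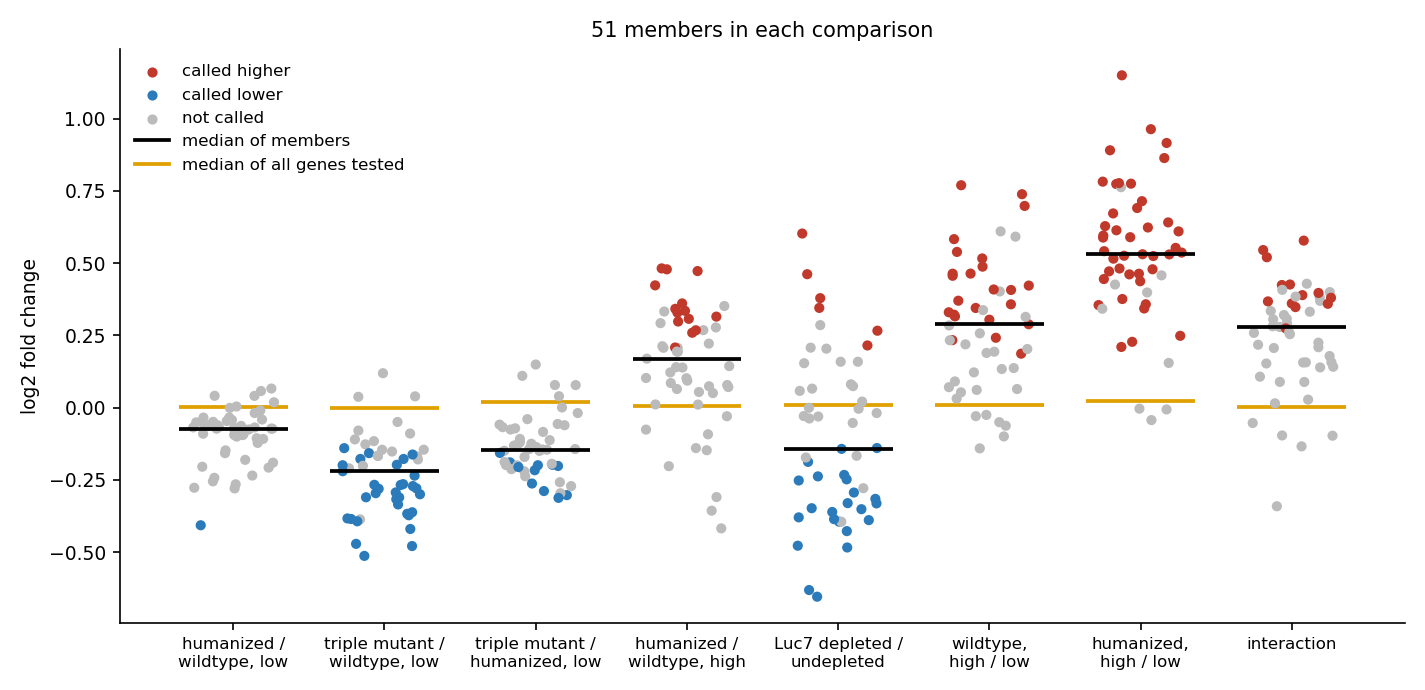
Log2 fold change (y axis) of the 51 genes in the 8 comparisons (x axis); red points were called higher, blue lower and grey not called, black bars are medians of the 51 genes and yellow bars medians of all genes tested. The median was lowest in the triple mutant against wildtype (−0.22) and highest in humanized cells at high against low density (+0.53). The medians of −0.07 (humanized, low density) and −0.14 (depletion) changed sign on the TPM scale. There the medians of all genes were +0.14 and +0.28, and relative to them the 51 genes stayed lower, at −0.06 and −0.16.

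At high density the median humanized difference was positive. At low density it had been −0.07 with the scaling used throughout and +0.08 on the TPM scale. Of the 51 genes 14 rose and none fell in humanized against wildtype cells (27.5% higher, against 16% of all genes called higher and 12.6% called lower), with a median of +0.17 against 0.00. They were 8 of 36 large-subunit and 6 of 15 small-subunit genes. The wildtype was sampled near an OD600 of 5 and the humanized strain near 8, so strain and density cannot be told apart.

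MRP13 (YGR084C), a small-subunit protein without a bacterial counterpart, had 61.6, 62.9 and 58.7 normalized CPM in wildtype and 82.4, 81.5 and 81.1 in humanized cells (+0.42 ± 0.06, edgeR adjusted p = 0.00289). MRPL1, the counterpart of L1, had 58.6, 61.3 and 52.7 against 76.5, 81.7 and 80.8 (+0.47 ± 0.08, edgeR adjusted p = 0.00550). MRPL40 had 59.4, 66.9 and 57.4 against 80.4, 87.5 and 87.4 (+0.48 ± 0.08, edgeR adjusted p = 0.00691). In each the groups did not overlap. MRPL17 (+0.48), MRPL35 (+0.36), MRPL7 (+0.34), MRPL15 (+0.30) and MRPS9 (+0.27) followed. The calls of MRPL7, MRPL15 and MRPS9 were lost without humanized replicate 1 or 2, and those of MRPL15 and MRPS9 also without wildtype replicate 1 (edgeR adjusted p = 0.0533 to 0.0759). Of the exit tunnel proteins MRPL22 rose as well (+0.21 ± 0.06, edgeR adjusted p = 0.0372), but not on leaving out any humanized replicate or wildtype replicate 1 or 3 (edgeR adjusted p = 0.0643 to 0.158), while MRPL4 (+0.14) and MRP20 (+0.29) were not called. MRP7, MRPL16, MRPL32, MRPS12 and MRP51 were not called either, at +0.08, +0.35, −0.20, +0.14 and +0.21. Of these genes without a call, MRP20, MRP51, MRPL16 and MRPS12 were called higher with the offset (edgeR adjusted p = 0.00277 to 0.0135), and they and MRPL4 on the TPM scale (limma adjusted p = 0.00428 to 0.0197). MRP20, MRP51 and MRPL16 were called with all 7 groups in 1 fit (edgeR adjusted p = 0.00710 to 0.0228), MRP20, MRP51 and MRPL4 without wildtype replicate 2 (edgeR adjusted p = 0.0101 to 0.0208), and MRP51 with DESeq2 (adjusted p = 0.0412).

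The 14 genes that rose were all among the 26 at or over the median coding length of 714 bases, and none of the 25 shorter ones was called, a split made after the values had been seen. The median was +0.28 in the longer and +0.05 in the shorter genes. Shorter genes also spread more between libraries. Their median coefficient of variation was 14.3% in wildtype and 11.6% in humanized libraries at high density, against 7.10% and 3.52% in the longer genes. MRPL37 had 31.5, 32.9 and 18.2 normalized CPM in wildtype and 15.5, 16 and 29.8 in humanized cells, with replicate 3 of each group on the side of the other group. With an offset per library for gene length and GC content 29 genes were called higher and 1 lower, 8 of those 29 among the shorter genes.

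**Figure D5:**
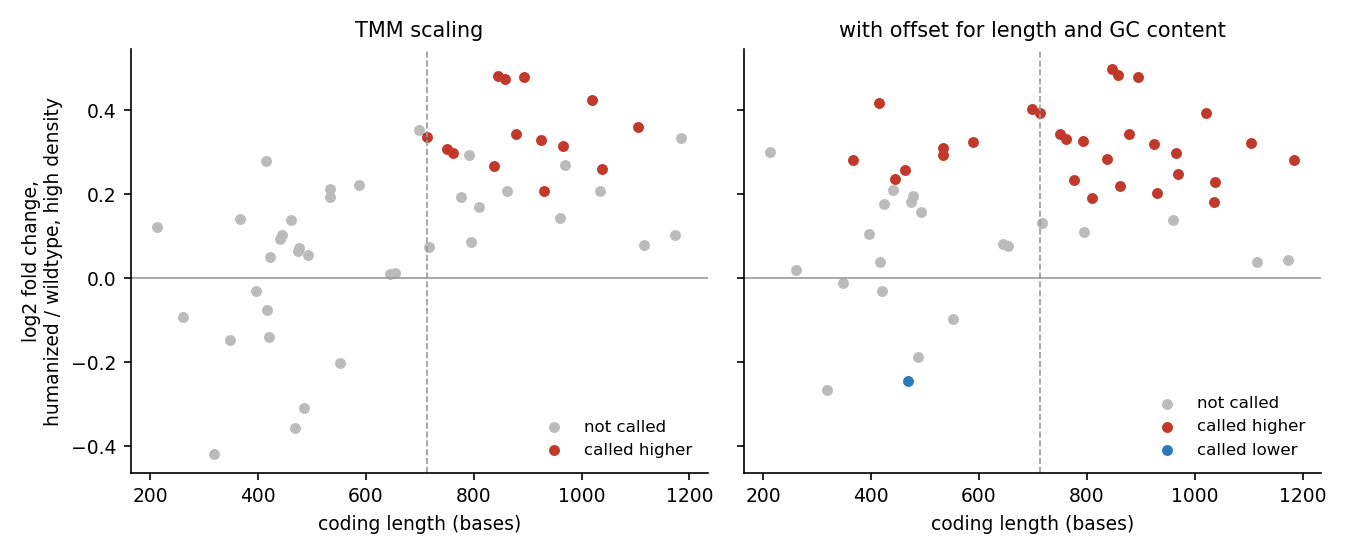
Log2 fold change of humanized against wildtype cells at high density (y axis) by coding length in bases (x axis) for the 51 genes, with the scaling used throughout (left) and with an offset for length and GC content (right); the dashed line is the median length. On the left 14 genes are called higher, all at or right of the line, and on the right 29. The share of all genes called with the offset is not shown.

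The count of 14 moved with single libraries too. It was 6, 5 and 7 without humanized replicate 1 or 2 or wildtype replicate 1, and 25 without wildtype replicate 2, and 1 gene was called lower without replicate 3 of either group. Related lists rose with the ribosome genes. Of 23 other mitochondrial ribosome proteins 6 rose, with RML2 at +0.56 and RSM23 at +0.52. Of 14 tRNA synthetases 11 rose, with MSR1, for arginine, at +0.56 and NAM2 at +0.50. Translation factors gave 4 of 9, with MEF2 at +0.51 and MEF1, the elongation factor G, at +0.49. Assembly factors gave 5 of 8, with RSM22 at +0.63 and MAM33 at +0.55. Activators of single mRNAs gave 8 of 14, with PET494, for COX3, at +0.60. RPO41, the mitochondrial RNA polymerase, rose by +0.72.

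Respiratory chain and ATP synthase genes rose in 22 of 33 with a median of +0.53, and SDH1 and SDH2 were at +1.39 and +1.23. Cytosolic ribosomal protein genes without an intron had a median of −0.40, with 22 of 43 lower. PUF3 had 52.6–61.4 normalized CPM in wildtype and 64.4–71.2 in humanized cells (+0.30 ± 0.08, edgeR adjusted p = 0.0297). That call was lost without wildtype replicate 1 or humanized replicate 1, 2 or 3 (edgeR adjusted p = 0.122, 0.0602, 0.130 and 0.0791) and after the offset (adjusted p = 0.0538). HAP4 had 141–186 and 181–197 normalized CPM, which overlapped, and was not called (+0.25 ± 0.11, edgeR adjusted p = 0.135), but was on the TPM scale (limma adjusted p = 0.0191) and without wildtype replicate 2 (edgeR adjusted p = 0.00392).

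Between densities the mitochondrial ribosome genes rose in both strains. Wildtype cells had 24 of the 51 higher and none lower at high against low density (47.1%, against 20.9% of all genes called higher and 22.7% called lower), with a median of +0.29 against +0.01. Humanized cells had 42 higher and none lower (82.4%, against 27.7% and 26.7% of all genes), with a median of +0.53 against +0.02. All 24 genes called in wildtype were also called in humanized cells, where they made up 57.1% of the list. Of all 6150 genes tested, 912 were called higher in both strains, 70.9% of the wildtype and 53.5% of the humanized list. Without wildtype replicate 2 at high density 2 genes were called lower in wildtype. The densities were sampled in separate experiments, so density and experiment cannot be told apart. High density was an OD600 near 5 in wildtype and near 8 in humanized cells, so the 2 strains are not compared over equal steps.

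MRPS17 (YMR188C), the counterpart of S17, rose furthest in both. It had 30.3, 30.1 and 26.9 normalized CPM in wildtype at low and 53.7, 50.8 and 45.6 at high density (+0.77 ± 0.07, edgeR adjusted p = 6.86e-06). In humanized cells it had 28.1, 29.3 and 28 against 60.7, 62.5 and 65.6 (+1.15 ± 0.07, edgeR adjusted p = 1.65e-07). No other gene of the set reached a log2 value of 1.

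MRP49 had 12.8, 14.5 and 11.2 normalized CPM in wildtype at low and 22.7, 23.5 and 18.6 at high density (+0.74 ± 0.12, edgeR adjusted p = 0.000415). In humanized cells it had 13.2, 13.8 and 13.2 against 24.9, 24.9 and 28.4 (+0.96 ± 0.12, edgeR adjusted p = 3.22e-05). MRP13 had 48.6, 45.4 and 50.4 against 61.6, 62.9 and 58.7 in wildtype (+0.33 ± 0.06, edgeR adjusted p = 0.000485) and rose by +0.69 in humanized cells. In all of these the densities did not overlap. MRPS18, MRPS28, MRP21, MRPL24 and MRPL6 were the next by p in wildtype, at +0.32 to +0.52, and MRPL17, MRPL15, MRPS9, MRPS5, MRPS28 and MRPL1 in humanized cells, at +0.59 to +0.89.

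Small-subunit genes gave 10 of 15 higher in wildtype and 14 of 15 in humanized cells, and large-subunit genes 14 and 28 of 36. MRPS12 rose in both, by +0.41 and +0.61, as did MRPL16, by +0.35 and +0.77. MRPL16 was not called in wildtype without replicate 1 or 2 at high or 1 or 3 at low density (edgeR adjusted p = 0.0748 to 0.135). MRP20 (+0.22 and +0.59), MRP51 (+0.12 and +0.48), MRP7 (+0.07 and +0.23) and MRPL40 (−0.06 and +0.52) were called in humanized and not in wildtype cells. By the interaction below the strains differed in MRP51 and MRPL40, and not past the test in MRP20 (adjusted p = 0.0552) and MRP7 (adjusted p = 0.253, both by edgeR). In wildtype MRP20 was called with DESeq2 (adjusted p = 0.0465), the offset (0.000842), the TPM scale (0.000249) and 4 single libraries left out (0.00907 to 0.0435). MRP51 was called there with the offset (edgeR adjusted p = 0.0236), on the TPM scale (0.000714) and without wildtype replicate 2 at low density (0.0228), and MRP7 on the TPM scale (limma adjusted p = 0.0103). MRPL4 (−0.10 and +0.15) and MRPL32 (+0.09 and −0.01) were called in neither. On the TPM scale MRPL32 was called higher in both (limma adjusted p = 0.0304 and 0.0184) and MRPL4 in humanized cells (0.00184). Without wildtype replicate 2 at high density MRPL4 was called lower in wildtype (−0.20, edgeR adjusted p = 0.0143) and higher in humanized cells (0.0223), the latter also with the offset (0.0156). MRPL51 had +0.46 and +0.78 and was called in both, in wildtype only with replicate 2 at high and replicate 1 at low density (edgeR adjusted p = 0.0539 and 0.0704 without them). Its coding sequence overlaps that of YPR099C on the opposite strand by 323 bases, and reads of the pair cannot be told apart without a known strand setting. MRPL19, which shares 113 bases with YNL184C on its own strand, was called in humanized cells (+0.54).

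Among other mitochondrial ribosome proteins 12 of 23 rose in wildtype and 19 in humanized cells, with RML2 at +0.31 and +0.91 and RSM23 at +0.64 in the latter. Of the translation factors 5 and 7 of 9 rose, with RSO55, a factor of ribosome rescue, at +1.05 in wildtype, MEF1 at +0.61 and +0.97, and TUF1 at +0.92 in humanized cells. MAM33, a matrix protein counted among the assembly factors, rose by +0.58 and +1.18, MSY1, the synthetase for tyrosine, by +0.88 in humanized cells, and MDM38, which ties the ribosome to the inner membrane, by +0.34 in wildtype. Respiratory chain and ATP synthase genes rose in 17 and 32 of 33, with SDH1 at +1.83 in humanized cells. Over the same comparisons cytosolic ribosomal protein genes without an intron had medians of −0.30 and −0.45. PUF3 rose in both strains, by +0.44 ± 0.07 (edgeR adjusted p = 0.000393) and +0.85 ± 0.07 (edgeR adjusted p = 1.40e-06). HAP4 was not called higher in either. It had 136–208 normalized CPM at low and 141–186 at high density in wildtype (−0.05 ± 0.14, edgeR adjusted p = 0.785) and fell in humanized cells, from 238–259 to 181–197 (−0.39 ± 0.14, edgeR adjusted p = 0.0374). That call was lost on leaving out any of the 6 humanized libraries (edgeR adjusted p = 0.0580 to 0.103) and on the TPM scale (limma adjusted p = 0.496).

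The interaction tests whether the humanized difference was the same in the low-density and the high-density experiment. High density was an OD600 near 5 in wildtype and near 8 in humanized cells. Strain and the size of the density step therefore cannot be told apart in this test. The interaction was positive in 13 of the 51 genes and negative in none past the test (25.5%, against 9.84% of all genes called positive and 8.02% called negative), with a median of +0.28 against 0.00. MRPL40 was highest at +0.58 ± 0.10 (edgeR adjusted p = 0.00216). Its mean stayed level in wildtype, with 60.8–66.5 normalized CPM at low and 57.4–66.9 at high density. In humanized cells it went from 58.4–60.9 to 80.4–87.5.

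MRPL1 (+0.55 ± 0.10, edgeR adjusted p = 0.00316), MRPL17 (+0.52 ± 0.11, edgeR adjusted p = 0.00737) and MRP13 (+0.36 ± 0.08, edgeR adjusted p = 0.00732, not called on the TPM scale with a limma adjusted p of 0.0801) had the next lowest p. MRP1 had 86.6–93.4 and 83.5–88.1 normalized CPM in wildtype and humanized cells at low density and 78.3–87.0 and 94.8–108 at high density. The 2 strains overlapped at low density and stood apart at high density (+0.39 ± 0.10, edgeR adjusted p = 0.0144). The other called genes were MRPL7, MRPL35, MRPS9, MRPL15, MRPS17, MRP51, MRPS5 and MRPL22. The call of MRPL22 was lost on leaving out each of 10 of the 12 libraries, all but wildtype replicate 2 at high and wildtype replicate 3 at low density. MRPS5 was lost in 8, all but these and humanized replicate 3 at high and 1 at low density. MRP51 was lost in 7, all of them high-density replicates other than wildtype 2 or humanized low-density replicates 2 and 3. MRPS17 was lost in 6, humanized replicates 2 and 3 at high and 1 and 3 at low density and wildtype replicates 1 and 2 at low density. The edgeR adjusted p in these ranged from 0.0506 to 0.0961.

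All 13 were again among the 26 longer genes, with medians of +0.35 in the longer and +0.15 in the shorter genes. After the offset for length and GC content 28 genes were positive, 7 of them among the shorter, and 1 was negative. The median relative to all genes was +0.26 after it in place of +0.28. Without wildtype replicate 2 at high density 23 genes were called. Of 23 other mitochondrial ribosome proteins 6 were positive, with RML2 at +0.60 and NAM9, the counterpart of S4, at +0.57. Respiratory chain and ATP synthase genes were positive in 15 of 33, with SDH1 at +1.1, and TUF1, MAM33 and RPO41 were at +0.45, +0.59 and +0.75. PUF3 was positive as well (+0.41 ± 0.10, edgeR adjusted p = 0.0155), a call that was lost without wildtype replicate 1 at high density (edgeR adjusted p = 0.0563) and on the TPM scale (limma adjusted p = 0.154). HAP4 was not called (−0.33 ± 0.20, edgeR adjusted p = 0.298), except without wildtype replicate 3 at low density (−0.55, edgeR adjusted p = 0.0254).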

How the data were processed

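RNA was extracted with hot phenol and poly(A)-selected, per the labels' protocols. The authors trimmed reads with cutadapt and quantified them with Salmon 1.9 against sacCer3, per the submitters' processing notes. No source used here gives the version of cutadapt or the strand setting. The deposited files hold the authors' estimated counts and TPM values per coding sequence. Estimated counts were rounded to whole numbers. Depth was 28.5 to 46.8 M reads per library.

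Tests used edgeR 4.0.16 in R 4.3.3, with trimmed-mean scaling, its filter on low counts, the quasi-likelihood test and Benjamini-Hochberg adjustment over all genes tested, called below 0.05. One fit held the 3 low-density groups, another both high-density groups and another both degron groups, and the density comparisons and the interaction were fitted over the 4 wildtype and humanized groups. Fold changes come from these fits, and normalized CPM from a scaling over all 21 libraries. With 3 libraries a group, a permutation test of 1 gene could not go below 0.10, so no such test was made. A standard error is that of the fitted log2 fold change.

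Coordinates are R64, the assembly sacCer3 is made from, and 5876 nuclear protein-coding genes were matched. Alternatives were DESeq2 1.42.0 and its size factors, no filter, limma 3.58.1 on log2(TPM + 1), an offset for the length and GC content of genes (a spline with 4 degrees of freedom), a replicate block, all 7 groups in 1 fit, leaving out each library and 100- and 400-base motif windows. The split by coding length was added after seeing the data. The fits were tested on simulated data.

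The genes and lists were chosen with earlier results of these data known. The genes named are, in each comparison, up to 8 called in each direction by p whose groups did not overlap, the 3 highest and 3 lowest by TPM, and MRPL4, MRPL22, MRP20, MRPL40, MRP7, MRPL16, MRPL32, MRPS12 and MRP51. Of related lists up to 2 called genes per comparison could be named, besides YHC1, LUC7, PUF3 and HAP4. MRPL51 and MRPL19 were added for their overlaps, MRP49 and MRPS8 for their spread, MRPL25 and MRPL37 for their lack of calls and MRPS16 at low density for its values, all after these were seen.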

Additional observations from a re-analysis of the deposited data

Results flagged for a closer look

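In 13 genes the humanized difference at high density differed from that at low density by the interaction test (edgeR, adjusted over all genes). All were positive. MRPL40 had an interaction of +0.58, MRPL1 +0.55, MRPL17 +0.52, MRPL35 +0.43 and MRPL15 +0.42 on the log2 scale. MRPL7 had +0.40, MRP1 +0.39, MRPS17 +0.38, MRPS5 +0.37, MRP13 +0.36, MRP51 +0.36, MRPS9 +0.35 and MRPL22 +0.27. With 1 of the 12 libraries left out in turn, the calls of MRPL22, MRPS5, MRP51 and MRPS17 were lost in 10, 8, 7 and 6 fits. The densities were also separate experiments, and the strains reached different OD600 values at high density.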

How the results depend on the processing

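The direction of the median of the 51 genes held in all alternatives in 6 of the 8 comparisons. On log2(TPM + 1) in limma it turned to +0.083 at low density and +0.12 in the depletion, and was −0.084 in the triple mutant against wildtype, −0.18 against humanized cells, 0.41 at high density, 0.44 and 0.74 between densities. The median of all genes moved as well there, by +0.14, +0.28, +0.13, +0.00, +0.17, +0.20 and +0.23 in the same order. On this scale 0 genes were lower at low density, 12 lower in the triple mutant against wildtype, 41 higher at high density, 22 higher and 4 lower in the depletion, 43 higher between densities in wildtype and 23 positive in the interaction. The offset for length and GC content gave 0 lower at low density, 24 lower and 1 higher in the triple mutant against wildtype, where the median relative to all genes was −0.117 in place of −0.220, 29 higher and 1 lower at high density and 28 positive and 1 negative in the interaction. All 7 groups in 1 fit gave 0 lower at low density and 22 higher and 1 lower at high density. Counts of all genes called under these settings are not given beside them. A change in these counts is therefore not shown to be particular to the 51 genes.

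With the replicate number as a block the counts were 0 lower at low density, 29 lower in the triple mutant against wildtype and 9 against humanized cells, 12 higher at high density, 6 higher and 20 lower in the depletion, 24 and 42 higher between densities and 15 positive in the interaction. The block ended 4 of the 87 calls of named genes, among them MRPL38 at low density, and the labels give the libraries only a number in common. Deviations of same-numbered libraries correlated at −0.43 to 0.59, and in 0 comparisons were all over 0.1.

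Leaving out each library in turn gave 0–3 genes lower at low density with medians of −0.11 to −0.04, 24–35 lower in the triple mutant against wildtype (−0.26 to −0.20) and 5–23 against humanized cells (−0.18 to −0.10). At high density 5–25 were higher and 0–1 lower (0.11 to 0.24), and in the depletion 5–10 higher and 19–22 lower (−0.16 to −0.14). Between densities 19–31 were higher and 0–2 lower in wildtype (0.24 to 0.36) and 38–44 higher in humanized cells (0.48 to 0.58), and 9–23 were positive in the interaction (0.22 to 0.35). Of 87 calls of named genes, 66 were kept whichever library was left out. All 87 were kept with DESeq2's size factors and with no filter, 86 with DESeq2, 81 with the offset, 82 with all groups in 1 fit and 70 on the TPM scale.

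Signs turned for MRP7 in the depletion on the TPM scale (+0.083) and for genes that were not called. On that scale MRPL32 was +0.077 at high density and +0.23 between densities in humanized cells, MRPL4 +0.12 and MRPL40 +0.15 between densities in wildtype, MRPL22 +0.26 in the depletion and PUF3 +0.023 at low density. MRPL22 in the depletion was also +0.022 with the offset, +0.0015 with all groups in 1 fit and −0.057 to +0.052 on leaving out 1 library. HAP4 between densities in wildtype was +0.20 on the TPM scale and −0.19 to +0.16 on leaving out 1 library. PUF3 was −0.12 with the offset in the triple mutant against wildtype. Leaving out 1 library gave −0.0053 to +0.0902 for MRP20 in the triple mutant against wildtype, −0.0048 to +0.17 for MRPL16 and −0.0029 to +0.18 for MRPL32 in the depletion, and −0.043 to +0.17 in wildtype and −0.061 to +0.039 in humanized cells for MRPL32 between densities. Of 359 values for 23 results on named genes of the set that were not called, 45 became calls. Of 70 results on other genes, 39 of 1108 values lost a call and 4 gained it. The causes of these shifts were not tested.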
